A study of Rattus norvegicus with 46 samples.

Results

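Abdominal skin of Sprague-Dawley rats was compared 3 days after the treatment day that the labels call day 0, at the end of a course of electron irradiation, with skin taken before any treatment. The irradiated vehicle group holds 3 arrays of day 3, from rats 322, 321 and 320 (replicates 1, 2 and 3), and the baseline group holds 6 arrays of untreated skin taken on day -10. These 9 of the 46 arrays of the series were chosen by their titles, and all 23188 features that are not controls were tested. The irradiated rats had received 40 Gy of 6 MeV electrons in 4 fractions of 10 Gy given every other day over 8 days, and injections of the solvent DMSO as vehicle on days -7, -5, -3 and 0. A second control is the unirradiated vehicle group of day 3, 2 arrays from rats 319 and 318 (replicates 1 and 2) that had the same injections and sham irradiation. Every biopsy was a 5 mm punch, and all rats sampled on day 3 belong to arms that were also biopsied on days -4 and 1, so radiation, vehicle, elapsed time and earlier punches cannot be told apart against baseline, whereas the day 3 control shares all but the radiation. The sources used here do not give the rats' age or sex. Rats 322 and 321 gave a baseline and a day 3 array, and rat 320 has no baseline array here.

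Ionising radiation breaks DNA and stabilises p53, the transcription factor that turns on genes of growth arrest, repair and cell death. The hair follicle is among the most radiosensitive structures of skin: matrix cells at its base divide fast while a hair grows and mature into the shaft and the inner root sheath, which are built of hair keratins and keratin-associated proteins. The interfollicular epidermis renews from basal keratinocytes anchored to the basement membrane, releases stored IL-1 family cytokines when stressed and signals to leukocytes through NF-kB and chemokines, and sebaceous glands fill the hair canal with lipid.

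Values are the deposited log2 signals, and every change below is a difference of group means on that scale, in log2 units and not as a fold. Features with an adjusted p below 0.05 count as called. Keratinocyte and fibroblast markers were bright on all 9 arrays, for example Krt14 at 15.88 to 17.34 and Dcn at 17.95 to 19.15 in baseline skin. Skeletal muscle genes averaged 16.07 to 17.17 on 5 baseline arrays and 16.27 to 16.75 on the irradiated ones, but 6.26 on baseline replicate 2. Baseline replicate 4, from rat 321, stood apart in hair genes. By the level of control features spiked into each sample, 18 arrays form a set I, 10 a set II and 18 a set III, which the labels do not name: all baseline arrays lay in set I, irradiated day 3 replicate 1 in set II and replicates 2 and 3, like both unirradiated day 3 arrays, in set III. A fit with the set as a block rests on the other arms and days, and it ended most calls, as listed after the counts. Where a group's mean lay at or below the level of the negative control features, the difference is given as at least the distance to that level.

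Of the 23188 features, 1980 (8.54%) were called, 1060 higher (4.57%) and 920 lower (3.97%) in irradiated skin, while the median difference of all features was 0.05. The 9 arrays did not overlap for 2758 features (11.9%), of which 1532 were also called (6.61% of all). With the spike-in set as a block 141 features were called (0.608%), 101 higher (0.436%) and 40 lower (0.173%), and 138 of them were among the 1980. With the rat as a fixed block 514 were called (2.22%), 385 higher (1.66%) and 129 lower (0.556%). All 1980 kept their sign in both fits. Left without irradiated replicate 1 or 3, the comparison called 1258 or 1148 features. Of the 159 called genes examined by name 35 kept their call with the set as a block and 79 with the rat as a fixed block. The called genes described below that kept it with the set are Abcb1a, Abcb1b, Acaca, Aen, Akr1b8, Alox12e, Alox5, Ccl20, Ccl21, Cd80, Dbp, Ephx1, Gpr15lg, Gria3, Gtse1, Htr4, Il18, Il1rl2, Insig1, Itgb4, Krtap1-5, Krtap14, Krtap19-5, Lss, Mdm2, Nfe2l2, Nfil3, Nqo1, Per3, Phlda3, Pln, Serpinb10, Serpinb11, Tef and Tp53inp1, and every other gene called against baseline and described below lost it in that fit. Against unirradiated skin of day 3, 1.3% of features were called and 13.6% had an unadjusted p under 0.05. Where a call below is said to be lost without an array, the number in brackets is the adjusted p, or the highest of several. Of the called features 1393 carried a gene symbol, and 53 lists of skin cell types and pathways sort these genes below.

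**Figure D1:**
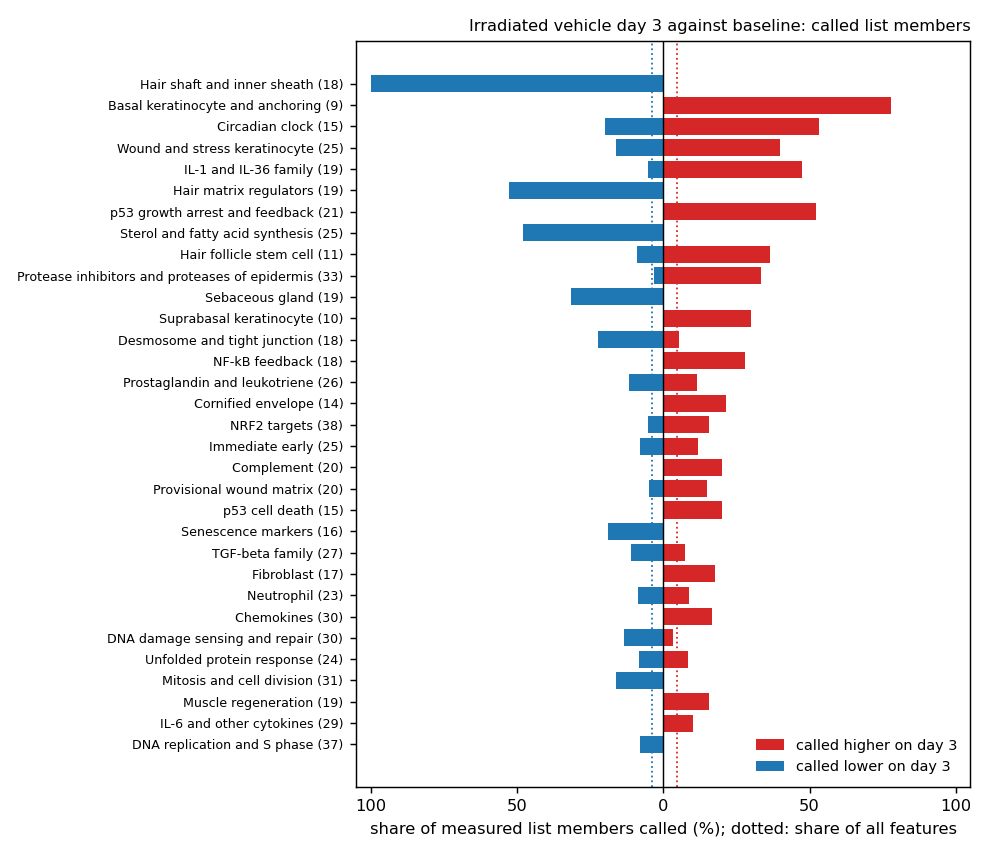
Share of the measured members of each gene list (number measured in brackets) that was called higher (red, right) or lower (blue, left) in irradiated vehicle skin of day 3 against baseline, in percent, for the 32 lists with 3 or more called members. Dotted lines mark the shares of all features, 4.57% higher and 3.97% lower; hair shaft genes reach 100% on the lower side and basal keratinocyte genes 77.8% on the higher side.

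Among features with a symbol, the largest differences were losses of hair transcripts. All 18 measured genes of the hair shaft and inner root sheath were called lower, with a median difference of -8.99, or -8.51 with the 8 genes that reached the negative control level set to their bound. The group holds keratins of the inner root sheath (Krt25, Krt27, Krt28, Krt71, Krt72, Krt73) and of the shaft (Krt35, Krt81, Krt85, Krt86). Their promoters are printed because this is the gene group that moved most and moved together. Sequences are RefSeq's, build GRCr8, read along each gene's own strand from 60 bases before to 10 bases after the annotated start, with the TATA match TATAAA in capitals, at chr7:134761024-134761093 (minus strand) for Krt71, chr10:84771188-84771257 (minus strand) for Krt25 and chr10:84824848-84824917 (minus strand) for Krt28.
Krt71: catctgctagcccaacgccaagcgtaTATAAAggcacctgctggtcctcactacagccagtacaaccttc
Krt25: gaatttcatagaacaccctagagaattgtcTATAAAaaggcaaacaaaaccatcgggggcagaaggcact
Krt28: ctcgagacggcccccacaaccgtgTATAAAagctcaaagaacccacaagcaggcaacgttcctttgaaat

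TATAAA, searched on both strands of 300 bases (250 before and 50 after the start), occurred in 10 of the 15 called hair shaft and sheath genes with a promoter entry (66.7%), against 1457 of 12435 measured genes (11.7%) and 61 of 538 genes called lower (11.3%). It began at base -34 in Krt71, -30 in Krt25 and -36 in Krt28, and a match in Krtap16-5 also began at -34. In Krt73, Krt27, Krt35, Krt72 and Krt84 it began farther from the start, at -49, -62, -85, -201 and -209 in that order. The matches in Krt26 lay farther out than -36 too. Hair keratins lie in gene clusters of shared descent, so their promoters are not independent, and a match is only a stretch of letters.

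Krt71, an inner root sheath keratin, read 15.24 to 18.69 (median 18.19) at baseline and 4.35, 10.83 and 3.91 on the 3 irradiated arrays, and fell by 11.39 (SE 2.68, adjusted p = 0.00489). The shaft keratin Krt35 read 11.76 to 16.33 (median 16.01) at baseline and 3.67, 5.22 and 3.49 after irradiation, and fell by at least 9.22 (adjusted p = 5.93e-05). In the hair keratin Krt86 the baseline range was 15.90 to 18.59 (median 18.43) and the irradiated values 6.31, 8.39 and 6.47, a fall of 10.85 (adjusted p = 2.72e-05). No irradiated array reached the lowest baseline array in these genes, and replicate 2, from rat 321, was the highest of the irradiated arrays in each. The keratin-associated proteins, which cross-link the keratins of the shaft, showed the same: Krtap7-1 went from 17.51 to 19.60 to 5.92, 9.44 and 4.55 and fell by 12.50, the widest fall of any named gene. Krt71 missed the threshold without irradiated replicate 3 (adjusted p = 0.0517). Krtap19-5 fell by at least 10.34, Krtap1-5 by 11.41, Krtap14 by at least 8.97 and Krtap31-1 by at least 8.02.

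Other hair genes fell as well. Krt81, Krt85, Krt72, Krt25, Krt73, Krt27 and Krt28 fell by 9.93, at least 9.94, at least 8.11, 9.70, 9.31, 9.08 and at least 7.72. S100a3, a calcium-binding protein of the hair cuticle, read 7.34, 7.54 and 7.40 against 12.28 to 17.37 and fell by 8.91. Gprc5d, an orphan receptor made by hair-forming keratinocytes, fell by at least 6.78 and Prr9 by 9.49. Lrrc15, listed with the myofibroblast genes, fell by 9.23.

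Regulators of the hair matrix were lower as well: 10 of 19 measured were called lower and none higher, with a median of -2.04. Dsg4, the desmosomal cadherin of the hair shaft, read 4.51, 4.94 and 4.05 against 10.65 to 15.63 and fell by at least 8.29 (adjusted p = 3.81e-05). Transcription factors that direct shaft differentiation fell with it, Dlx3 by 6.17, Foxn1 by 5.63, Msx2 by 5.32 and the Wnt effector Lef1 by at least 5.10. Wnt5a fell by 2.53 and Bmp4 fell by 2.26, the latter losing its call (adjusted p up to 0.136) when any of 5 single arrays was left out. Of these regulators, 0 of the 19 were called lower with the set as a block, and 2 with the rat as a fixed block. Shh, the signal of the growing matrix, lay at the negative control level in both groups, so no size is given.

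Stem cell genes of the follicle did not move as 1 group, with 4 of 11 called higher and 1 lower and a median of 0.04. Lgr5, a Wnt pathway receptor of cycling follicle stem cells, went from 9.60 to 11.55 (median 10.62) to 6.42, 6.23 and 6.07 and fell by 4.36 (SE 0.94, adjusted p = 0.00214). Nfatc1, a factor of quiescent bulge stem cells, read 10.27, 10.79 and 10.86 against 7.96 to 9.94 (median 8.69) and rose by 1.90 (SE 0.39, adjusted p = 0.00142). Fgf18, a growth factor of the resting phase of the hair cycle, rose by 2.02, and the activin and BMP antagonist Fst by 2.05. Of the stem cell genes, 0 of the 11 were called higher and 0 lower with the set as a block, and 1 higher and 0 lower with the rat as a fixed block. Calls were lost for Fgf18 without irradiated replicate 3 (0.0915) and Gjb6 without baseline replicates 1, 2, 3 or 5 or irradiated replicates 1, 2 or 3 (up to 0.138). The gap junction genes Gjb2 and Gjb6, coding for connexins, fell by 6.75 and 2.49, and Chac1, a glutathione-degrading enzyme that was bright in untreated skin (10.10 to 13.11), fell by at least 6.24.

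Hair genes varied between rats and days without radiation too. The mean of the 18 hair shaft and sheath genes was 15.78, 15.87, 15.58, 11.54, 15.78 and 14.95 on baseline replicates 1 to 6 and 5.90, 7.58 and 5.89 on the irradiated arrays of day 3. In irradiated vehicle skin it was already 6.68, 10.80 and 9.42 on day -4, during the radiation course, 6.44, 5.92 and 9.44 on day 1 and 5.69, 5.88 and 5.83 on day 7. Unirradiated vehicle skin read 12.20 and 16.33 on day 3, both above the irradiated arrays, but 7.51 and 5.81 on day 7. Its replicate 2 came from different rats on days 3 and 7. Rat 321 had the low baseline array, 11.54, and rat 322 had 15.58, and the same-rat change of Krt71 was -4.41 in rat 321 and -13.85 in rat 322. The hair cycle stage of these biopsies was not recorded in the sources used here, and fewer follicle cells and less RNA per cell cannot be told apart in bulk skin. With the spike-in set as a block the median of the 18 genes was -5.07 and 0 of 18 were called, Krt71 having an adjusted p of 0.529 and Krt35 of 0.166, whereas Krtap19-5, Krtap1-5 and Krtap14, which are outside that list, kept their calls (adjusted p = 0.0338, 0.039 and 0.0359).

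**Figure D2:**
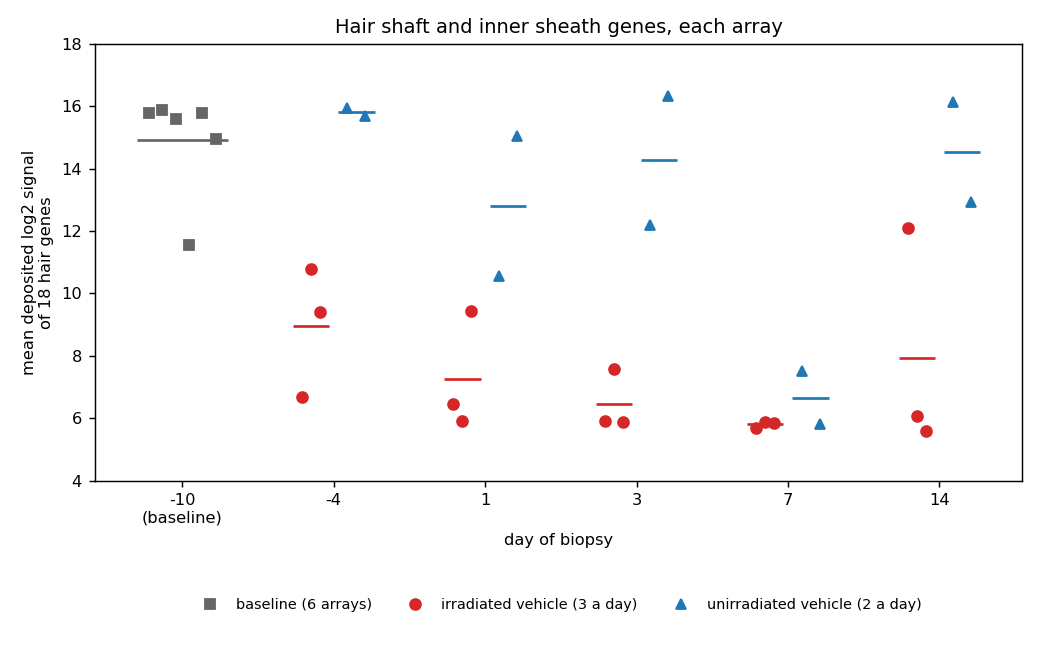
Mean deposited log2 signal of 18 hair shaft and inner root sheath genes on each array (points) with group means (bars), by day of biopsy. The 3 irradiated vehicle arrays of day 3 (5.90, 7.58 and 5.89) lie below all 6 baseline arrays and both unirradiated arrays of that day. The unirradiated arrays of day 7 read 7.51 and 5.81, the latter from a rat without a day 3 array.

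Transcripts of p53 signalling were higher. Of 21 measured genes of growth arrest and feedback 11 were called higher and 0 lower, with a median of 1.10, and of 15 genes of p53-driven cell death 3 were higher. Mdm2, the ubiquitin ligase through which p53 limits itself, read 10.37 to 11.21 (median 10.68) at baseline and 13.41, 13.26 and 12.81 after irradiation, and rose by 2.43 (SE 0.25, adjusted p = 5.03e-08). Unirradiated skin of day 3 read 11.41 and 11.01, 1 array inside and 1 just above the baseline range. Cdkn1a, the cell cycle inhibitor, read 11.71 to 13.25 (median 13.04) and 14.70, 14.35 and 14.98, and rose by 1.90 (SE 0.38, adjusted p = 0.00102). Its unirradiated values were 12.85 and 13.96, and the day 3 groups differed by 1.27 (adjusted p = 0.221). Gtse1, a p53-binding regulator of the cell cycle, went from 5.97 to 6.84 to 8.29, 8.52 and 8.85 and rose by 2.17 (SE 0.26, adjusted p = 1.28e-06).

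Part of the called p53 genes carry a match to the p53 half-site near their start, printed here as a description. The windows are RefSeq's, build GRCr8, on each gene's strand, with the match in capitals, at chr20:7150706-7150765 (plus strand) for Cdkn1a, chr7:118830127-118830186 (plus strand) for Gtse1 and chr1:142224478-142224537 (plus strand) for Aen.
Cdkn1a: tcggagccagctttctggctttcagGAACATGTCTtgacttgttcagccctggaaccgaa
Gtse1: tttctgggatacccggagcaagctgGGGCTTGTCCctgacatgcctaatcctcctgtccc
Aen: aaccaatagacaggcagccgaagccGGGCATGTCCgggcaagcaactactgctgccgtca

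The half-site, searched on both strands of the 300 bases, was found in 3 of 9 called arrest and feedback genes with a promoter entry (33.3%: Cdkn1a, Gtse1 and Ei24), against 910 of 12435 measured genes (7.32%) and 52 of 589 called higher (8.83%). Mdm2, Ephx1, Cd80 and Phlda3 had no match in this window. A match is only a stretch of letters, and binding of p53 was not tested.

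Tp53inp1, which takes part in p53-dependent stress responses, read 14.45, 14.06 and 14.50 against 11.85 to 13.51 and rose by 1.90 (SE 0.26, adjusted p = 9.79e-06). Phlda3, an Akt inhibitor induced by p53 and named after its values were seen, rose by 1.40 with the arrays at 10.98, 11.08 and 11.15 against 9.45 to 9.92. Of the cell death genes, the death receptor Fas rose by at least 1.05, the nuclease Aen by at least 1.11 and the mitochondrial pore former Bax by 0.87, Bax losing its call without irradiated replicate 1 or 2 (adjusted p up to 0.0633). Ccng1, another p53 target, was bright but spread widely at baseline (11.37 to 16.69) and differed by 1.5 (adjusted p = 0.185). Gdf15 lay at the negative control level in both groups. With the set as a block 6 of the 21 arrest and feedback genes stayed called, among them Mdm2 (adjusted p = 0.00105), Gtse1 (0.00105) and Phlda3 (0.0138), and Cdkn1a did not (0.171).

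The highest rise of all belonged to Abcb1b, a P-glycoprotein efflux pump. It read 5.32 to 6.77 (median 5.55) at baseline, 7.42 and 6.05 in unirradiated and 14.03, 13.11 and 13.55 in irradiated skin of day 3, and rose by at least 7.26 (adjusted p = 1.17e-17), which held with the set as a block (adjusted p = 6.86e-12). Rats 321 and 322 gained 7.40 and 8.64 between their own biopsies. Its paralog Abcb1a, named after the values were seen, read 6.00, 6.46 and 5.84 against 3.56 to 4.30, at the negative control level in both group means. Ephx1, the microsomal epoxide hydrolase that detoxifies reactive epoxides, read 8.18 to 9.65 (median 8.89) at baseline and 13.26, 12.56 and 13.63 on day 3, and rose by 4.25 (SE 0.35, adjusted p = 2.47e-10). Cd80, a costimulatory ligand of antigen-presenting cells counted among p53-induced genes here, read 9.56, 9.57 and 9.39 against 4.84 to 6.12 and rose by at least 3.31 (adjusted p = 9.38e-07). The array values of these genes did not overlap between irradiated skin and either control.

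Genes better known from excitable tissue stood beside them. Pln, the phospholamban that restrains the sarcoplasmic calcium pump, read 10.50, 10.70 and 10.86 against 5.02 to 7.10 (median 5.77) and rose by at least 4.32 (adjusted p = 9.39e-09). Gria3, an AMPA glutamate receptor subunit, read 9.14, 8.56 and 8.58 against 4.77 to 5.80 and rose by at least 2.59 (adjusted p = 2.47e-10), and Htr4, a serotonin receptor, read 6.43, 6.35 and 7.09 against 2.48 to 3.51 and rose by at least 0.45, a bound set by a baseline far below the negative controls. The unirradiated arrays read 5.22 and 5.00 for Gria3 and 7.23 and 5.62 for Pln. The baseline array with the lowest muscle signal, replicate 2, read 7.10 for Pln, the highest of the 6.

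**Figure D3:**
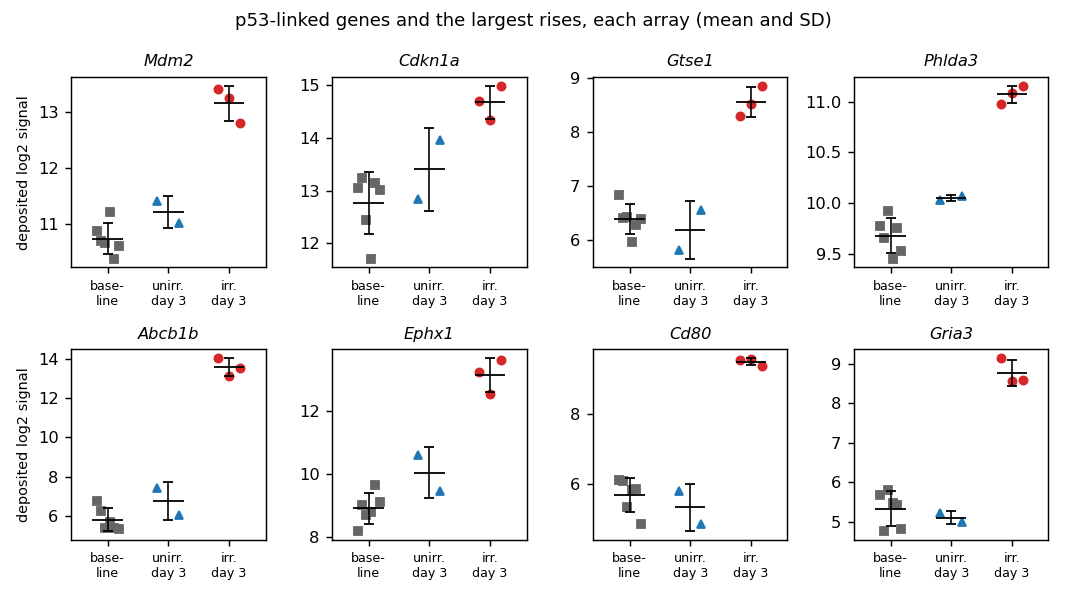
Deposited log2 signal of 8 genes on each array of baseline (grey squares, 6), unirradiated vehicle day 3 (blue triangles, 2) and irradiated vehicle day 3 (red circles, 3), with the mean and SD of each group in black. In all 8 panels the irradiated arrays lie above every other array; Abcb1b reads 13.11 to 14.03 against 5.32 to 6.77 at baseline.

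Antioxidant genes under NRF2, the regulator coded by Nfe2l2, split: 6 of 38 were called higher and 2 lower, with a median of 0.31. Ephx1, described above, is counted both here and among the p53 arrest and feedback genes. Nqo1, a quinone reductase, read 6.02 to 8.02 (median 7.30) at baseline and 9.97, 10.85 and 10.65 after irradiation, and rose by 3.24 (SE 0.52, adjusted p = 6.97e-05), while unirradiated skin lay between, at 9.46 and 8.60. Akr1b8, an aldo-keto reductase, read 9.93, 10.43 and 9.50 against 5.51 to 7.15 and rose by at least 3.62 (adjusted p = 2.00e-06). Nfe2l2 itself read 12.40, 12.50 and 12.62 against 10.57 to 11.23 and rose by 1.61 (SE 0.18, adjusted p = 2.93e-07). Akr1c15 and Gsta1 rose by 1.65 and 1.34, and calls were lost for Akr1c15 without irradiated replicate 3 (0.0785) and Gsta1 without irradiated replicate 2 (0.0811). Of the NRF2 genes, 4 of the 38 were called higher and 0 lower with the set as a block, and 4 higher and 0 lower with the rat as a fixed block. The glutathione synthesis genes went the other way, Gclc reading 7.69, 7.95 and 8.17 against 7.83 to 10.89 (median 10.35), a fall of 2.06 (adjusted p = 0.00847), and Gclm falling by 0.96 (adjusted p = 0.0496). Gclm lost its call in 8 of the 9 fits that left out 1 array, reaching an adjusted p of 0.238, and Gclc without irradiated replicate 1 (adjusted p = 0.0535), and baseline replicate 4, low in hair genes, was also low in Gclc at 7.83. Hmox1, heme oxygenase, differed by 0.45 (adjusted p = 0.661). The antioxidant element TGACNNNGC, searched on both strands, was found in 4 of the 8 called members' promoters against 13.4% of all measured genes. Nfe2l2, Gsta1, Akr1c15 and Gclm, which fell, had a match. Nqo1, Akr1b8, Ephx1 and Gclc had none.

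Cell division genes lay lower as a group, few of them past the threshold. Of 31 measured mitosis genes 0 were higher and 5 were called lower, all 31 had a negative difference, and the median was -1.06. With the set as a block 24 were negative and 7 positive, with a median of -0.31. With the rat as a fixed block 30 were negative and 1 positive, with a median of -0.63. Irradiated against unirradiated skin of day 3, 0 of the 31 were called (5 at an unadjusted p under 0.05), with a median of -0.68. Aurka, the spindle pole kinase, read 7.84, 6.91 and 7.13 against 7.80 to 9.27 (median 8.34) and fell by 1.14 (SE 0.30, adjusted p = 0.0115). Kif11, the spindle motor, fell by 1.36, the checkpoint kinase Bub1 by 1.21, the kinetochore gene Ndc80 by 1.63 and the mitotic kinase Plk1 by 1.60. Calls were lost for Aurka without irradiated replicates 2 or 3 (up to 0.0983), Kif11 without irradiated replicates 2 or 3 (up to 0.0734), Bub1 without baseline replicate 1 or irradiated replicates 1 or 3 (up to 0.135), Ndc80 without baseline replicates 1, 3 or 6 or irradiated replicates 2 or 3 (up to 0.22) and Plk1 without baseline replicates 1, 2, 3 or 6 or irradiated replicates 1, 2 or 3 (up to 0.148). Mki67, the proliferation marker, read 10.69, 11.27 and 11.71 against 11.76 to 13.59 (median 13.27), a difference of -1.66 (adjusted p = 0.102). Of 37 replication genes 3 were lower, 8.11% against 3.97% of all features, with Tk1, the thymidine kinase, down by 2.21. Of 30 DNA damage sensing and repair genes 4 were lower and 1 higher, 16.7% called against 8.54% of all features. The histone H2ax fell by 1.70, Brca1 by 1.19 and Chek2 by 1.00, while Rbbp8, an end-resection factor, rose by 0.94. Of the replication and repair genes 0 were called with the set or with the rat as a fixed block, and calls were lost for Brca1 without irradiated replicates 1, 2 or 3 (up to 0.086), Chek2 without irradiated replicates 1 or 3 (up to 0.115), H2ax without irradiated replicates 2 or 3 (up to 0.11) and Rbbp8 without irradiated replicates 1 or 3 (up to 0.0807). Lmnb1, the nuclear lamin whose loss marks senescent cells, read 9.81, 10.31 and 9.77 against 11.34 to 13.24 (median 12.96) and fell by 2.75 (SE 0.54, adjusted p = 0.000891); neither these genes nor Lmnb1 passed with the set as a block (0 of 31 mitosis genes, Lmnb1 at adjusted p = 0.316). Baseline replicate 4, the lowest in hair genes, was also the lowest in Lmnb1 at 11.34, and the part of follicle content in these genes was not tested. Of 16 measured senescence markers, a list without Cdkn1a, 0 were called higher and 3 lower, with a median of -0.34. That is 18.8% called, against 8.54% of all features, and 0 were called with the set or with the rat as a fixed block. Senescence itself was not tested.

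Basal keratinocyte and anchoring genes rose: 7 of 9 measured were called higher and 0 lower, with a median of 1.29. Itgb4, the hemidesmosomal integrin subunit that ties basal cells to laminin, read 11.43 to 12.58 (median 11.77) at baseline, 13.25 and 12.15 in unirradiated and 14.38, 14.40 and 15.07 in irradiated skin, and rose by 2.73 (SE 0.28, adjusted p = 3.57e-08). Its partner Itga6 rose by 1.29, the laminin chain Lamb3 by 1.73 and the linker Plec by 1.36. Krt14, the basal keratin, read 17.96, 18.00 and 18.18 against 15.88 to 17.34 (median 16.59) and rose by 1.45 (SE 0.24, adjusted p = 0.000133). Of 10 suprabasal genes 3 were higher, Krt1 by 1.78, Sbsn by 1.86 and Dmkn by 2.45. Of 14 cornified envelope genes 3 were higher, among them Spink5, the inhibitor of skin kallikreins, by 1.63 and Hal, the histidase that makes urocanic acid, by 3.40. Of 17 barrier lipid genes, the lipoxygenase Alox12b rose by 2.29 and the lipase Lipn by 2.31. Dsg3, the desmosomal cadherin of lower epidermal layers, rose by 1.77, but its list did not rise with it. Of 18 measured desmosome and tight junction genes 1 was called higher, Dsg3, and 4 lower, with a median of -0.26. The claudin genes Cldn4 and Cldn8 fell by 1.40 and 1.70. Single arrays ended the calls of Hal without irradiated replicate 3 (0.0787), Lipn without irradiated replicate 3 (0.0681) and Alox12b without irradiated replicates 1 or 3 (up to 0.125). With the set as a block 0 of the suprabasal, cornified and barrier lipid genes were called. Irradiated against unirradiated skin of day 3, 0 of them were called either, with medians of 0.07, -0.10 and 0.21 in that order. Unirradiated skin of day 3 against baseline had medians of 0.64, 0.69 and 0.68 in these lists, with 0 called. Only Itgb4 of the basal genes kept its call with the set as a block (adjusted p = 0.00147), and irradiated against unirradiated skin of day 3 1 of the 9 was called (4 at an unadjusted p under 0.05), Itgb4, with a difference of 1.92 (adjusted p = 0.00324).

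Among proteases and protease inhibitors of the epidermis 11 of 33 measured genes were called higher and 1 lower, with a median of 1.33. Serpinb10 read 11.20, 12.14 and 11.23 against 6.01 to 8.51 (median 7.20) and rose by 4.24 (SE 0.58, adjusted p = 7.88e-06). Serpinb11 rose by 3.73, Serpinb2, which inhibits plasminogen activators, by 3.62 and Serpinb12 by 2.99, and the cystatin-like Stfa3 rose by 3.95. The kallikrein protease Klk11 rose by 2.91 and the secreted inhibitor Wfdc21 by 2.57, while the membrane protease St14, matriptase, fell by 1.58. Of the protease and inhibitor genes, 2 of the 33 were called higher and 0 lower with the set as a block, and 7 higher and 0 lower with the rat as a fixed block. Lost calls were those of St14 without baseline replicates 1, 2, 3 or 5 or irradiated replicates 1, 2 or 3 (up to 0.156) and Wfdc21 without baseline replicates 1, 3 or 5 or irradiated replicates 1, 2 or 3 (up to 0.214). The antimicrobial peptide gene Defb14 read 13.26, 11.47 and 12.52 against 8.39 to 9.50 (median 9.21) and rose by 3.40 (SE 0.55, adjusted p = 8.16e-05), but unirradiated skin of day 3 was also high, at 11.63 and 10.98. The same held for Serpinb12 (13.67 and 13.72 unirradiated, 14.95, 14.29 and 15.14 irradiated), and irradiated and unirradiated skin of day 3 differed in 1 of the 33 genes (5 at an unadjusted p under 0.05), Serpinb11, by 3.10 (adjusted p = 0.0115).

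Cytokine genes made by keratinocytes were higher, while Il1b, Il6, Tnf and Cxcl1 lay at the negative control level. Of 19 IL-1 and IL-36 family genes 9 were called higher and 1 lower, with a median of 0.79. Il18 read 7.97 to 9.69 (median 8.75) at baseline and 11.76, 11.64 and 11.71 on day 3, and rose by 2.86 (SE 0.40, adjusted p = 1.30e-05). Il1a, the alarmin stored in keratinocytes, read 11.90, 11.73 and 12.71 against 7.99 to 10.30 and rose by 2.95 (SE 0.48, adjusted p = 7.68e-05), and Il36g read 10.54, 10.84 and 10.13 against 6.30 to 9.23 and rose by 3.01 (SE 0.67, adjusted p = 0.00269). Il36b rose by 2.47, the IL-36 receptor Il1rl2 by 2.05 and the decoy receptor Il1r2 by 1.67, while Gsdma, the gasdermin of differentiating epidermis, fell by 1.98. Calls were lost for Il36b without irradiated replicate 3 (0.0508), Il1r2 without baseline replicate 3 or irradiated replicates 1, 2 or 3 (up to 0.091) and Gsdma without baseline replicates 1, 2, 3 or 5 or irradiated replicates 1, 2 or 3 (up to 0.124). Il1b read 5.34, 5.38 and 5.53, Il6 4.30, 4.72 and 4.47, Tnf 4.68, 4.76 and 5.18 and Cxcl1 5.47, 4.88 and 4.24 on the irradiated arrays, each at or below the negative controls in both groups. With the set as a block 2 of the 19 were called, Il18 (adjusted p = 0.0287) and Il1rl2 (0.0103), and 5 of the 19 with the rat as a fixed block. Between irradiated and unirradiated skin of day 3, 0 of the 19 were called in limma, 6 had an unadjusted p under 0.05 and the median was 0.66; Il18 read 10.67 and 9.69 there without radiation.

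Of 30 chemokines 5 were called higher and 0 lower. Ccl20, which draws lymphocytes and dendritic cells, read 6.68 to 8.05 (median 7.94) at baseline, 7.72 and 8.06 in unirradiated and 10.89, 12.86 and 10.75 in irradiated skin, and rose by 3.80 (SE 0.54, adjusted p = 1.24e-05). Ccl21, the lymphatic chemokine, read 10.57, 10.53 and 10.46 against 6.45 to 7.64 and rose by 3.41 (SE 0.44, adjusted p = 2.84e-06). Cxcl16, Pf4 and Ccl22 rose by 2.05, 2.25 and 2.16, with the call lost for Pf4 without irradiated replicate 2 (0.0811) and Ccl22 without irradiated replicates 1 or 3 (up to 0.126). Of the chemokines, 2 of the 30 were called higher with the set as a block, and 3 with the rat as a fixed block. Gpr15lg, an epithelial ligand of a lymphocyte homing receptor, read 10.17, 8.68 and 10.12 against 3.99 to 5.59 and rose by at least 3.49 (adjusted p = 0.000109), and Il22ra2, the soluble decoy for IL-22, rose by at least 2.55. Of 18 NF-kB feedback genes 5 rose, among them the inhibitors Nfkbia by 1.58 and Nfkbie by at least 0.89 and the adhesion molecule Icam1 by 1.89; the NF-kB motif, searched on both strands, was in 2 of these 5 promoters (Nfkb2 and Nfkbia, 40.0%) and in 1.63% of all measured genes. Of the NF-kB genes, 0 of the 18 were called higher with the set as a block, and 2 with the rat as a fixed block, and 2 without irradiated replicate 3. Calls were lost for Nfkbia without irradiated replicate 3 (0.0798) and Nfkbie without irradiated replicate 3 (0.068). Stat3 rose by 1.07 and the macrophage growth factor Csf1 by 1.27.

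**Figure D4:**
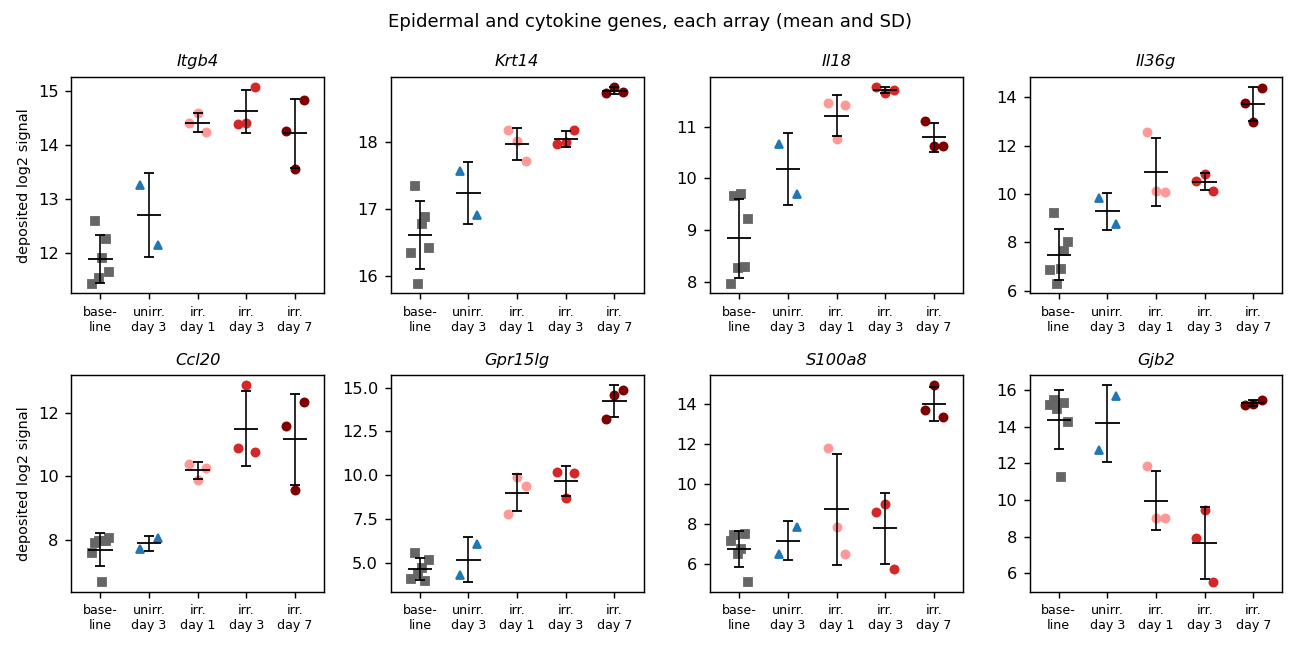
Deposited log2 signal of 8 epidermal, cytokine and junction genes on each array of baseline, unirradiated vehicle day 3 and irradiated vehicle days 1, 3 and 7, with the mean and SD of each group in black. Itgb4, Il18, Ccl20 and Gpr15lg are above baseline on all 3 irradiated days, and on day 7 S100a8 reads 13.37 to 14.96 and Gjb2 15.17 to 15.46.

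Macrophage and lymphocyte lists had no called member on day 3. Of 30 macrophage and monocyte genes 0 were called (1 at an unadjusted p under 0.05), and their mean on the irradiated arrays was 7.71, 8.30 and 7.56 against 7.26 to 8.27 at baseline. In this list 10 of the 30 lay at the negative control level in both groups. Cd68 differed by 0.78 (adjusted p = 0.416) and C1qa by 0.71 (adjusted p = 0.397). Of 27 T and NK cell genes 0 were called (2 at an unadjusted p under 0.05), and 25 of the 27 lay at the negative control level in both groups, where a change may go unseen. All 7 B and plasma cell genes lay there as well. Of 30 interferon response genes 0 were called (1 at an unadjusted p under 0.05), with 16 at the control level in both groups. Neutrophil genes were divided, 2 of 23 higher and 2 lower (17.4% called, against 8.54% of all features), with 14 at the control level in both groups. Kit, the receptor of mast cells and melanocytes, fell by 1.32 (adjusted p = 0.00311), the 1 called member of both those lists, and lost the call without irradiated replicate 1 (0.0543). S100a9, a neutrophil and stressed-keratinocyte gene, read 10.83, 11.43 and 7.47 against 6.50 to 8.55, a difference of 2.65 (adjusted p = 0.211), with irradiated replicate 3 the low one.

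Transcripts of lipid synthesis were lower. Of 25 measured sterol and fatty acid synthesis genes 12 were called lower and 0 higher, with a median of -1.09, and 24 of the 25 differences were negative. Insig1, the sterol-sensing retention protein, read 12.95 to 14.63 (median 14.26) at baseline and 10.24, 11.32 and 10.41 on day 3, and fell by 3.39 (SE 0.47, adjusted p = 9.28e-06). Fasn, fatty acid synthase, read 9.11, 10.67 and 10.41 against 12.06 to 15.11 (median 13.07) and fell by 3.22 (SE 0.70, adjusted p = 0.00219), and Acaca, which makes its malonyl-CoA, fell by 1.79. The desaturases Fads2, Scd and Fads1 fell by 4.17, 3.36 and 1.93. Sebaceous gland genes moved with them, 6 of 19 lower and 0 higher with a median of -0.94: the elongase Elovl3 read 8.76, 11.72 and 9.52 against 13.07 to 14.77 and fell by 3.94, the sterol esterifier Soat1 by 2.24 and the melanocortin receptor Mc5r by 1.60. Unirradiated skin of day 3 stayed at 14.17 and 14.58 in Scd and 13.64 and 14.02 in Elovl3, inside the baseline ranges. Against it 4 of the 25 synthesis genes were called lower, Insig1 by 3.09 (adjusted p = 0.00462). Insig1, Acaca and the sterol cyclase Lss, named after its values were seen, kept their calls with the set as a block (adjusted p = 0.0042, 0.0287 and 0.0222), and 4 of the 25 were called with the rat as a fixed block. Single arrays ended the calls of Lss without irradiated replicate 3 (0.0541), Elovl3 without irradiated replicates 1 or 3 (up to 0.151), Soat1 without baseline replicates 1, 2, 4, 5 or 6 or irradiated replicates 1 or 3 (up to 0.234) and Mc5r without baseline replicates 1, 2, 4 or 6 or irradiated replicates 1 or 3 (up to 0.298), and 0 of the 19 sebaceous genes were called with the set and 1 with the rat as a fixed block.

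**Figure D5:**
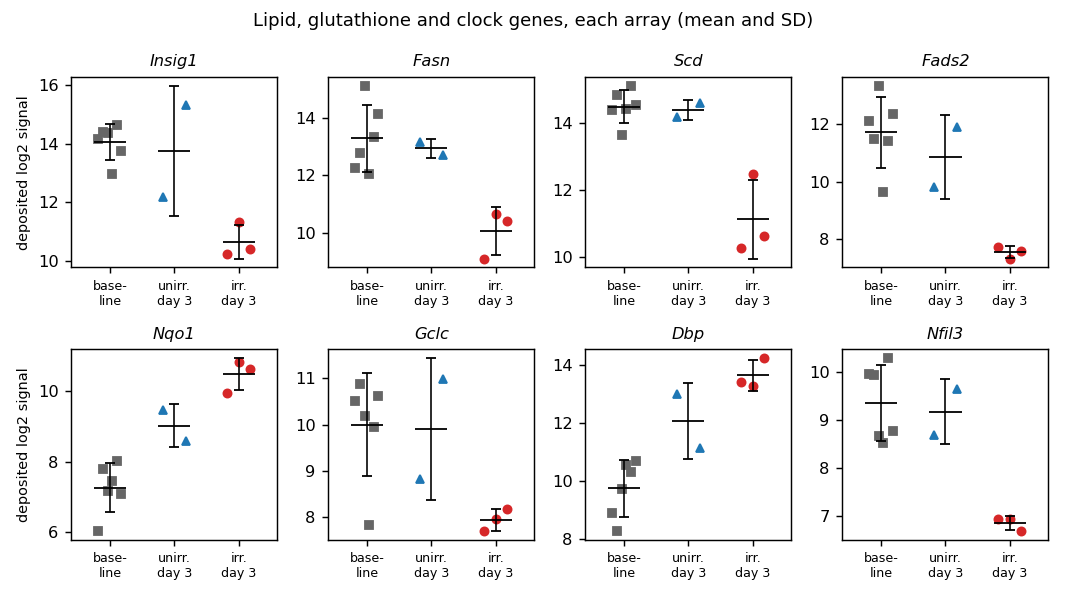
Deposited log2 signal of 8 lipid, glutathione and clock genes on each array of baseline (grey squares), unirradiated vehicle day 3 (blue triangles) and irradiated vehicle day 3 (red circles), with the mean and SD of each group in black. Insig1, Fasn, Scd and Fads2 are lowest in irradiated skin, Nqo1 rises while Gclc falls, and Dbp is raised in unirradiated skin as well (13.00 and 11.14).

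Clock genes changed in opposite directions, 8 of 15 higher and 3 lower. Dbp, an output factor of the clock, read 8.27 to 10.69 (median 10.02) at baseline and 13.41, 13.29 and 14.25 on day 3, and rose by 3.91 (SE 0.39, adjusted p = 3.39e-08). The related factor Tef rose by at least 1.63, and the repressors Nr1d1, Nr1d2 and Per3 rose by 2.54, 1.95 and 1.43. Nfil3, which opposes Dbp at shared sites, read 6.94, 6.94 and 6.68 against 8.52 to 10.28 and fell by 2.50 (SE 0.38, adjusted p = 3.81e-05), and the core activator Bmal1 fell by 0.82. Of the clock genes, 3 of the 15 were called higher and 1 lower with the set as a block, and 5 higher and 2 lower with the rat as a fixed block, and calls were lost for Nr1d1 without irradiated replicate 3 (0.0508) and Bmal1 without irradiated replicate 2 (0.0655). Unirradiated skin of day 3 read 13.00 and 11.14 in Dbp. In unirradiated skin of day 3 against baseline 0 of the 15 were called in limma, with a median of 0.70. Of these genes 11 had an unadjusted p under 0.05 there, against 4.56% of all features. Irradiated against unirradiated skin of that day 1 of the 15 was called (2 at an unadjusted p under 0.05), Nfil3 at -2.31 (adjusted p = 0.0097). The sources used here do not give the hour of each biopsy, and its part in these genes was not tested.

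Of 22 genes of collagens and their cross-linking enzymes 2 were called higher, 9.09% against 4.57% of all features, and 0 lower (the members called being Col18a1 and the lysyl oxidase Loxl4). Col1a1 read 18.84, 19.32 and 19.12 against 18.69 to 19.40, a difference of 0.21 (adjusted p = 0.7), Col3a1 differed by 0.39 (adjusted p = 0.518) and Tgfb1 by -0.06 (adjusted p = 0.956). Of 17 fibroblast genes 3 were called higher: Dcn, the collagen-binding decorin, read 19.17, 19.59 and 19.51 against 17.95 to 19.15 (median 18.09) and rose by 1.18 (SE 0.20, adjusted p = 0.000175). Of 26 matrix proteases and inhibitors 2 were called higher, 7.69% against 4.57% of all features. Among them Mmp2, a gelatinase, read 16.95, 17.64 and 16.78 against 14.43 to 16.33 and rose by 2.18 (adjusted p = 7.83e-05). Baseline replicate 4 read 16.33 in Mmp2, the highest of its group, as it was in Dcn, Col3a1, C1r and C1s. Dcn had an adjusted p of 0.0696 with the set and 0.0825 with the rat as a fixed block. Thbs2 and Tgfbi of the wound matrix rose by 1.93 and 1.83, and calls were lost for Thbs2 without irradiated replicates 2 or 3 (up to 0.0696) and Tgfbi without irradiated replicate 3 (0.0766). The complement proteases C1r and C1s rose by 1.44 and 1.35, calls that were lost for C1r without irradiated replicate 2 (0.0766) and C1s without irradiated replicates 1 or 2 (up to 0.121), and the adipocyte factor Cfd, adipsin, by 1.74, while Adipoq differed by 0.59 (adjusted p = 0.553).

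Muscle genes varied with the biopsy at baseline. The 24 skeletal muscle genes had a median difference of 1.91 with 0 called higher and 1 lower (Myh7, the slow myosin, by at least 0.41), and Acta1 read 19.79, 19.71 and 19.82 on day 3, 7.87 on baseline replicate 2 and 19.76 to 19.92 on the other baseline arrays. Sln, the calcium pump regulator sarcolipin, read 16.54, 16.56 and 16.67 against 4.59 to 14.24 (median 11.90) and rose by 5.59 (SE 1.80, adjusted p = 0.0469), and the neonatal myosin Myh8 rose by 3.48 (SE 0.88, adjusted p = 0.00933). Sln lost its call without baseline replicate 2 (adjusted p = 0.119), 3 or 6 or any irradiated array, and Myh8 without irradiated replicate 3 (adjusted p = 0.0887). Unirradiated skin of day 3 read 15.59 and 14.16 for Sln and 12.14 and 10.23 for Myh8. Hspb7, a muscle small heat shock protein, rose by 3.63, and calls were lost for Hspb7 without irradiated replicate 3 (0.109) and Myh7 without baseline replicates 1 or 3 or irradiated replicates 1, 2 or 3 (up to 0.122).

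Of 25 wound and stress keratinocyte genes 10 were higher and 4 lower, with a median of 1.03, of which 1 was called with the set and 7 with the rat as a fixed block, all higher. Single genes moved in other lists. Alox12e, an epidermal lipoxygenase, read 3.42, 3.51 and 3.94 on the irradiated arrays, 5.05 to 9.19 (median 7.59) at baseline and 9.92 and 6.82 in unirradiated skin, and fell by at least 0.88 (adjusted p = 0.000311). Alox5, the first enzyme of leukotriene synthesis, read 9.0, 9.05 and 8.56 against 5.81 to 7.58 and rose by 2.20 (SE 0.29, adjusted p = 3.62e-06). Among immediate early genes 3 of 25 were higher and 2 lower, with Ier3 up by 1.65 and Dusp2 and Egr3 down by 2.90 and 1.55; the call was lost for Egr3 without baseline replicates 1, 2, 3, 5 or 6 or irradiated replicates 1 or 2 (up to 0.222). Tap1, the peptide transporter of class I presentation, rose by 1.69. The keratinocyte stress keratin Krt17 differed by 0.48 (adjusted p = 0.53), and the stress gene Sprr1a, bright at baseline (15.57 to 17.72), fell by 2.07, a call lost for Sprr1a without irradiated replicates 1 or 3 (up to 0.118).

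Against unirradiated vehicle skin of the same day 302 features were called (1.3% of 23188), 152 higher (0.656%) and 150 lower (0.647%), and 285 of them were also called against baseline, all in the same direction; both comparisons share the irradiated arrays. Abcb1b differed by 6.82 (SE 0.44, adjusted p = 1.64e-12), Gria3 by at least 2.50 (adjusted p = 1.03e-07), Gtse1 by at least 2.12 (adjusted p = 7.97e-05), Ephx1 by 3.11 (SE 0.45, adjusted p = 7.74e-05) and Alox12e by at least 2.22 (adjusted p = 0.000929) in the directions given above. Of the hair shaft and sheath genes 9 of 18 were called lower, as were 4 of 19 matrix regulators, and 7 of 21 p53 arrest and feedback genes were higher. The count fell to 185 and 151 without irradiated replicate 1 or 3, to 91 with the compared groups alone and to 16 with the rat as a fixed block. It also rested on the 2 control arrays, falling to 32 without unirradiated replicate 2 and rising to 957 without unirradiated replicate 1, the control lower in hair genes, and 1 feature was called on the 4 arrays of set III alone. Unirradiated skin of day 3 against baseline gave 0 calls in limma (1058 features, 4.56%, at an unadjusted p under 0.05, smallest adjusted p 0.164). With 2 arrays, that comparison could not show that vehicle skin was unchanged.

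Within irradiated vehicle skin, day 3 and day 1 gave 0 calls in limma (986 features, 4.25%, at an unadjusted p under 0.05). Abcb1b read 14.25, 14.26 and 13.41 on day 1 and 14.03, 13.11 and 13.55 on day 3, and Krt35 3.99, 3.57 and 9.34 and 3.67, 5.22 and 3.49, each with overlapping ranges. By day 7, 754 features differed from day 3 (3.25%), 493 higher (2.13%) and 261 lower (1.13%), and 15.7% had an unadjusted p under 0.05. S100a8 read 8.63, 9.0 and 5.76 on day 3 and 13.72, 14.96 and 13.37 on day 7, and rose by 6.22 (SE 1.30, adjusted p = 0.00437), with S100a9 up by 5.91. Gjb2 came back from 7.95, 9.45 and 5.53 to 15.17, 15.24 and 15.46, a gain of 7.65 (adjusted p = 0.00212), the kallikrein Klk13 gained 6.36 and Gpr15lg 4.57. Of the 30 macrophage genes that had 0 calls on day 3 against baseline, 19 were higher on day 7 than on day 3, with a median of 2.62. Ephx1 went from 13.26, 12.56 and 13.63 to 11.04, 10.84 and 10.06 and fell by 2.51 (SE 0.40, adjusted p = 0.000314), Pln fell by 2.37, Tp53inp1 by 1.53 and Gtse1 by 1.14, whereas Mdm2 differed by -0.70 (adjusted p = 0.207) and Abcb1b by -1.33 (adjusted p = 0.0555). Wfdc21, higher on day 3 than at baseline, fell by 7.17 (SE 0.96, adjusted p = 3.55e-05), Lce1m fell by 3.97 and Adh6a fell by at least 3.14. Of the 18 hair shaft and sheath genes 0 were called between days 3 and 7. The count of 754 fell to 459 and 233 without day 3 replicate 1 or 3, to 465 and 241 without day 7 replicate 2 or 3, and to 29 within set III.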

How the data were processed

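RNA of 46 skin punches from 9 rats was hybridised to 46 rat Clariom S arrays, 100 ng an array at a mean RIN of 7.15, per the labels' protocols. The deposited table holds log2 signals by the authors for 24834 features, and the sources used here do not give their background correction or normalisation. Array medians ran from 6.84 to 6.95, and values reached 19.66 to 19.93 on the arrays, above the 16 of a plain scanner scale, so differences are given in log2 units. The number of arrays limits the precision. Groups came from the titles, also for the unirradiated replicate 2 of day 1, whose title and description name different days.

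The 1646 control features were left out. Of 23188 features tested, 15049 have 1 gene symbol and 8139 have none. limma 3.58.1 (R 4.3.3) fitted the means of 16 groups over the 46 arrays (30 residual degrees of freedom), and p-values were adjusted over 23188 features by Benjamini-Hochberg. The fit was tested on simulated data. Arrays of a group come from different rats, and arrays of different days share rats. A group mean at or below the mean of its arrays' negative control medians (5.78 to 6.52, over 1153 features) gives only a bound.

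The members and the 53 gene lists (1110 of 1321 entries measured) were chosen with earlier results of these data known. Genes were named by rule: the 20 highest and 20 lowest called differences with a symbol and no overlap, up to 6 called members of a list in each direction, the 3 smallest unadjusted p in lists with fewer than 3 called, and a panel of known genes. Phlda3, Abcb1a and Lss fall outside it. Motifs were searched in 12435 RefSeq promoters of GRCr8. Alternatives were quantile normalisation, a filter on dim features, array weights, rat, replicate number or spike-in set as a block, the compared groups alone, arrays of set III alone, and leaving out each array. Replicate numbers do not pair the groups: baseline replicates 3 and 4 and irradiated replicates 1 and 2 are rats 322 and 321.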

Additional observations from a re-analysis of the deposited data

Results flagged for a closer look

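In 37 of the 182 named genes 1 of the 6 baseline arrays stood far from the other 5, with a gap to its neighbour that exceeded Dixon's critical share of the group's range; chance gives this in about 1 in 20 groups, and the genes are not independent. Baseline replicate 4 was the low array in 28 of them. The hair keratins, keratin-associated proteins and other hair shaft genes had these log2 signals on it: Dsg4 10.65, Gprc5d 8.65, Krt25 13.01, Krt27 15.3, Krt28 8.46, Krt35 11.76, Krt71 15.24, Krt73 11.76, Krt81 15.64, Krt85 13.44, Krt86 15.9, Krtap19-5 11.75, Krtap31-1 6.35, Krtap7-1 17.51, Prr9 12.79 and S100a3 12.28. Other genes low on it were Acaca 9.86, Ccl20 6.68, Chac1 10.1, Dlx3 9.8, Foxn1 9.83, Gclc 7.83, Gjb2 11.26, Gpnmb 8.89, Lef1 7.96, Lmnb1 11.34, Msx2 8.09 and St14 9.73. The same array was the high one in 5 genes, of dermis and complement: C1r 12.2, C1s 13.01, Col3a1 18.74, Dcn 19.15 and Mmp2 16.33. Baseline replicate 2 was the low array in Acta1 7.87, Ccl5 4.01, Ccng1 11.37 and Myh8 4.55, with Acta1 and Myh8 being muscle genes. Without baseline replicate 4 the comparison of irradiated skin with baseline called 2652 features.

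Irradiated and unirradiated vehicle skin of day 3 differed by the test itself in 302 features, 152 higher and 150 lower with radiation.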

How the results depend on the processing

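The 1980 features called against baseline kept their sign under every alternative that measured them. Quantile normalisation gave 2022 calls, the filter on dim features 2092, rat as a random block 1985 and the compared groups alone 1546, each within 1.5 times of 1980. Array weights gave 3056 calls, rat as a fixed block 514 (487 of them among the 1980) and the spike-in set as a block 141, and leaving out 1 array gave 1148 (without irradiated replicate 3) to 2652. Between irradiated and unirradiated skin of day 3, 302 calls became 16 with rat as a fixed block, 91 with the compared groups alone, 1 within set III, and 32 to 957 when 1 array was left out. The replicate block, with the labels' replicate number as a term, gave 2493 calls against baseline (1685 of them among the 1980) and 325 between the day 3 groups, and the numbers do not mark the same rat against baseline. It gave 3 calls for unirradiated day 3 against baseline, where leaving out 1 array gave 0 to 2. For day 3 against day 1 there were 4 calls with array weights, 2 with rat as a fixed block, 1 with the replicate block and 0 to 2 without 1 array. For day 7 against day 3, 754 calls became 1193 with array weights, 730 with the replicate block, 29 within set III and 233 (without irradiated day 3 replicate 3) to 641 without 1 array. Of 159 called named genes, rat as a fixed block kept 79, the spike-in set block 35 and the replicate block 153, and leaving out 1 array lost 2 to 44. No called named gene reversed. Of those not called, Tgfb1 turned to 0.10 with array weights, 0.21 with the replicate block, and lay at -0.26 to 0.07 without 1 array (above 0 without baseline replicate 2, 4 or 5, 0.01, 0.05 and 0.02; without irradiated replicate 1 or 3, 0.02 and 0.07). Acta1 turned to -0.06 with rat as a fixed block and -0.08 without baseline replicate 2 (-0.08 to 2.33 over the fits without 1 array), Il6 to -0.17 with rat as a fixed block, and Col1a1 to -0.17 with the set as a block. The cause was not tested. For a gene at the level of the negative controls in both groups no size of change is given. A change there may go unseen, though Abcb1a was called at that level.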
